A study of Homo sapiens with 12 samples.

Results

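The miRNAs described here are hsa-miR-766, hsa-miR-942, hsa-miR-1251 and hsa-miR-577, 4 of the 501 miRNA assays with a normalised value in the deposited data. They were picked from the assays that the study lists near SOX2 binding sites of human embryonic stem cells and as deregulated after SOX2 knock-down. MiR-766 and miR-942 were listed from 2102Ep cells, and miR-1251 and miR-577 from NTera-2 cells. In those contrasts the values below are a description and carry no test, since the same values chose the miRNAs.

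TaqMan array cards were run on 12 samples of 2102Ep and NTera-2, 2 established human embryonal carcinoma cell lines (hECCs). The 4 groups were 2102Ep cells transfected with a SOX2 siRNA (2102Ep siSOX2), 2102Ep cells given Silencer Select Negative Control #1, an siRNA without a target, in its place (2102Ep NC), and the same pair in NTera-2 cells (NTera-2 siSOX2 and NTera-2 NC), with 3 samples each, labelled as biological replicates. Cells were transfected for 6 h and grown for a further 72 h, and all groups, the controls included, received transfection agent and siRNA. The agent was Lipofectamine 2000 in 2102Ep cells (passages 35 to 50) and Lipofectamine RNAiMAX in NTera-2 cells (passages 40 to 50). The siRNA concentration differed between the lines as well. Cell line, transfection agent and siRNA concentration can therefore not be told apart. Each line stands for 1 tumour, and no untransfected sample was analysed here. SOX2 mRNA is not a target of these cards, so the knock-down itself could not be checked in these data. The study reports an unequal fall of SOX2 mRNA between the lines, with no SOX2 protein detected after knock-down. The fall was smaller in NTera-2 cells.

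SOX2 is a transcription factor with a DNA-binding HMG box that, with OCT4 and NANOG, holds pluripotent cells in their undifferentiated state. A miRNA is cut from a hairpin transcript, loaded into an Argonaute protein and guided to its target mRNAs mainly by its seed, the stretch from base 2 to base 8. Many miRNA hairpins lie within a longer host gene and can be cut from the host's transcript, so that a factor at the host promoter can change the level of the miRNA.

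The mature sequences of the miRNAs are shown because the seed sets which mRNAs each can pair with. Of the 4, 3 had an entry for the measured strand in the RefSeq table used here (GRCh38.p14), and miR-766 (the 3p strand) is named only. In the lines that follow the seed is in capitals, and the strand of all 3 is plus.

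miR-942 (5p strand, chr1:117094655-117094676): uCUUCUCUguuuuggccaugug

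miR-1251 (5p strand, chr12:97491913-97491933): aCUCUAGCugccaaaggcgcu

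miR-577 (chr4:114656774-114656794): uAGAUAAAauauugguaccug

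The 3 seeds differ from each other, and each was carried by 0 other mature miRNAs among the 2351 distinct mature sequences of the table. Their lengths were 22, 21 and 21 bases, and their GC contents 45.5%, 57.1% and 28.6%. Each gene lies within the span of a longer gene in RefSeq. MIR766 on chromosome X lies in SEPTIN6, which encodes a filament-forming GTP-binding protein. MIR942 lies in TTF2, which encodes a factor that releases RNA polymerase II from its template, and MIR1251 in RMST, a long non-coding RNA of the nervous system. MIR577 lies in UGT8, which encodes the enzyme that adds galactose to ceramide in myelin lipids. The host transcripts were not measured on these cards.

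Promoter windows of the hosts (250 bases before to 50 bases after the annotated start) were searched on both strands for CATTGT and CTTTGT, a pair of core sequences bound by SOX proteins that do not overlap each other. CATTGT occurred in 10.8% and CTTTGT in 16.1% of all 35116 windows of the table, and at least 1 of them in 24.5%. The windows that held a match are shown with the match in capitals, for SEPTIN6 (minus strand), TTF2 (plus strand) and RMST (plus strand).

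SEPTIN6, host of miR-766 (chrX:119693119-119693418): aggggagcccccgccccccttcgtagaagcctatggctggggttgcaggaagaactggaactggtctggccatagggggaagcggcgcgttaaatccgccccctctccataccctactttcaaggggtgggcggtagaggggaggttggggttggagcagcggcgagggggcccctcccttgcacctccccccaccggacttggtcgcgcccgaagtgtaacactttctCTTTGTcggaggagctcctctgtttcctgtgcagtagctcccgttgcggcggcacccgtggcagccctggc

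TTF2, host of miR-942 (chr1:117060076-117060375): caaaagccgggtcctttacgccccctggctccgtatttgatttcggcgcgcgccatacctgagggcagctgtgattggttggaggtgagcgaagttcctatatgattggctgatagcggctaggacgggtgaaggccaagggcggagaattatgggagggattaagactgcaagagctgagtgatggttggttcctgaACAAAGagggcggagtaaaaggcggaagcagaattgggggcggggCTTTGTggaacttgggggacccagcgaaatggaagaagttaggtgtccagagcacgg

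RMST, host of miR-1251 (chr12:97464441-97464740): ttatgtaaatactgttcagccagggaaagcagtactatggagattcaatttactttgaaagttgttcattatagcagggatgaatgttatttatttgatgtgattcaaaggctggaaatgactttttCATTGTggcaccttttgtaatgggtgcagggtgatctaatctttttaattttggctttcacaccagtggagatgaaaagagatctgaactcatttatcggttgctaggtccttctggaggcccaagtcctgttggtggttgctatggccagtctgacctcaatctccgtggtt

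The SEPTIN6 window held 1 CTTTGT and the TTF2 window 2, one on each strand. The first RMST window held 1 CATTGT and the other RMST window 0 matches. The 3 windows of UGT8 held 0 matches. A match is a stretch of letters and not a site, and binding of SOX2 was not measured in these samples. The distances to the start that the study gives for its SOX2 sites lie outside such windows for miR-766, miR-1251 and miR-577. For miR-942 alone the distance is short enough to fall within one. The matches, and their absence for UGT8, therefore do not bear on the sites listed for those other miRNAs.

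All 4 miRNAs were assayed on card B, which holds 211 of the 501 assays. A Ct counts the PCR cycles an assay needs to reach a set signal. The more RNA, the lower the Ct, and a step of 1 cycle corresponds to about 1 log2 unit. The dCt is the raw Ct minus a reference Ct of the same sample and card, and minus dCt is called the level here. On card B the reference of NTera-2 cells averaged RNU48, U6 and miR-16-1*, whereas that of 2102Ep cells was close to the card's median (0.192 cycles off at most). A dCt of one line can therefore not be set against a dCt of the other. A fold change is given as siSOX2 minus NC on the log2 scale, and its standard error (SE) comes from the limma fit on all samples.

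The 2102Ep samples had values for 421 to 433 assays and the NTera-2 samples for 449 to 451. All 8 assays of a list of pluripotent miRNAs (the miR-302 and miR-371 clusters) were measured in all samples, with a median raw Ct between 17.1 and 17.9 over the groups. In 2102Ep cells 0 of these 8 passed the test after knock-down and in NTera-2 cells 1 was lower. All 8 had a log2 fold change below 0 in NTera-2 cells, as had 71.4% of all assays there. Their median was -0.41, beside -0.27 for all assays. Of the lists for other cell types, 5 of 5 neural, 4 of 8 muscle and mesenchymal, 4 of 5 endoderm and liver and 3 of 6 blood miRNAs had an assay here. In all 3 samples of a group, 5 neural, 2 to 4 muscle and mesenchymal, 4 endoderm and liver and 2 or 3 blood miRNAs were measured. Their median raw Cts lay between 22.4 and 26.5. After knock-down 1 neural miRNA was lower and 1 of endoderm and liver higher in 2102Ep cells, and 1 neural, 1 muscle and mesenchymal and 1 of endoderm and liver were higher in NTera-2 cells. The part of these lists in the results below was not tested. The raw Ct of 2102Ep siSOX2 replicate 3 stood out of line with its assays in the deposited table, and its raw values were rebuilt as dCt plus the reference Ct.

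MiR-766 had the lowest raw Ct of the 4 assays and was lower in 2102Ep cells after SOX2 knock-down. Its dCt was -1.43, -0.57 and -0.99 in the 2102Ep siSOX2 samples, against -3.13, -3.55 and -3.26 in the 2102Ep NC samples. All 3 siSOX2 samples lay below all NC samples in level, as in 18.1% of all assays of this line. The gap was larger than the range within either group. The mean dCt was -0.996 ± 0.426 in siSOX2 and -3.32 ± 0.215 in NC samples (SD, n = 3 each). This was a log2 fold change of -2.32 (SE 0.34), or 0.200 of the NC level. In RNA of whole cultures, fewer cells with the miRNA and less of it per cell cannot be told apart. Of the 432 assays tested in this line, 2 had a lower log2 fold change. In raw Ct, before any reference, miR-766 stood at 23.7 ± 0.384 cycles in siSOX2 and 21.2 ± 0.314 cycles in NC samples. Within the cards, 57.2% to 68.1% of the other measured card B assays had a higher Ct than miR-766 in siSOX2 samples, against 75.9% to 78.9% in NC samples, although the Ct of an assay also depends on its own efficiency.

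In NTera-2 cells, from which the study did not list it, the difference in miR-766 was smaller and did not pass the test. Its dCt was 5.66, 5.68 and 5.51 in siSOX2 samples, against 5.49, 4.11 and 4.82 in NC samples. The siSOX2 samples lay close together and all below the NC samples in level, though the nearest of each group were almost level (5.51 in siSOX2 replicate 3 and 5.49 in NC replicate 1). In this line 22.8% of all assays had all siSOX2 samples below all NC samples. The log2 fold change was -0.81 (SE 0.34, 95% interval -1.57 to -0.050), with an adjusted p of 0.196 from limma. NC replicate 2 had the highest level, and without it the log2 fold change was -0.46 (adjusted p = 0.371). Without NC replicate 1, the lowest NC sample, it was -1.15 (adjusted p = 0.0619), and these were the ends of the range over all samples left out. The median log2 fold change of the 195 card B assays tested was -0.40 in NTera-2 cells, and miR-766 lay 0.41 below that.

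MiR-942 was also lower in 2102Ep cells after knock-down, by less and with more spread. Its dCt was 2.63, 3.49 and 2.41 in 2102Ep siSOX2 samples, against 1.54, 1.54 and 2.12 in 2102Ep NC samples. The groups did not overlap, but the highest siSOX2 sample (replicate 3) and the lowest NC sample (also replicate 3) lay only 0.29 apart in level. In 2102Ep cells 18.1% of all assays had all siSOX2 samples below all NC samples. The mean dCt was 2.84 ± 0.572 in siSOX2 and 1.73 ± 0.338 in NC samples (SD, n = 3 each), a log2 fold change of -1.11 (SE 0.39), or 0.462 of the NC level. Of the 432 assays 10.4% had a lower log2 fold change than miR-942. Without siSOX2 replicate 2, the sample with the lowest level, the log2 fold change was -0.79.

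In NTera-2 cells miR-942 showed no change past the test. The dCt was 8.04, 7.997 and 7.85 in siSOX2 samples, against 8.09, 6.62 and 7.43 in NC samples. The groups overlapped, as NC replicate 1 had a lower level than every siSOX2 sample. The log2 fold change was -0.58 (SE 0.39, 95% interval -1.45 to 0.29, adjusted p = 0.450 from limma), which does not show that the level was the same. Relative to the card B median, miR-942 lay 0.18 lower.

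**Figure D1:**
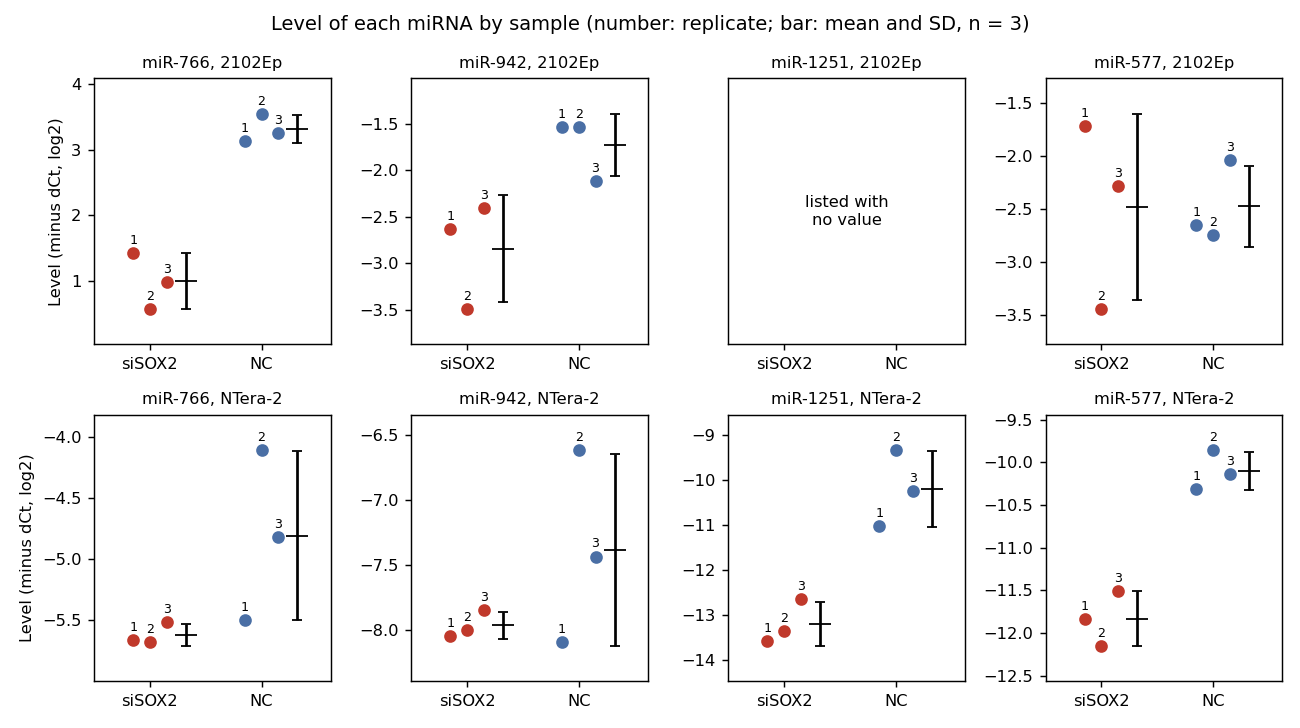
Level of each miRNA (minus dCt, log2 scale, vertical axis) in every siSOX2 (red, left) and NC (blue, right) sample of 2102Ep (upper row) and NTera-2 cells (lower row); points are samples numbered by replicate and bars are the mean and SD of 3. MiR-766 and miR-942 are separate between the groups in 2102Ep cells, miR-1251 and miR-577 and, by a narrow gap, miR-766 in NTera-2 cells, and the vertical scales differ between panels.

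MiR-1251 was measured in NTera-2 cells alone, where it was lower after knock-down. Its dCt was 13.57, 13.34 and 12.63 in NTera-2 siSOX2 samples, against 11.02, 9.34 and 10.24 in NTera-2 NC samples. Every siSOX2 sample lay below every NC sample, as in 22.8% of all assays of this line, with a gap of more than 1 unit between the nearest ones. The mean dCt was 13.2 ± 0.490 in siSOX2 and 10.2 ± 0.842 in NC samples (SD, n = 3 each). The log2 fold change was -2.98 (SE 0.49), or 0.127 of the NC level, and 6 of the 451 assays tested in this line had a lower one. The same numbered pairs of samples differed by -2.55, -4.00 and -2.40 for replicates 1, 2 and 3. In raw Ct miR-1251 stood at 29.7 ± 0.516 cycles in siSOX2 and 26.9 ± 1.12 cycles in NC samples. Between 8.33% and 9.84% of the other card B assays had a higher Ct in siSOX2 samples, against 22.3% to 37.1% in NC samples, so the miRNA moved towards the weak end of the card.

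In all 6 samples of 2102Ep cells miR-1251 was listed with no value, in both the raw Ct and the dCt. No fold change was therefore calculated in that line or between the lines. It shared this with other assays, as 61 of the 445 assays measured in all 6 NTera-2 samples had no value in any 2102Ep sample, 39 of them on card B. In the other direction, 41 of the 413 assays measured in all 6 2102Ep samples had no value in any NTera-2 sample. An empty value may stand for a level below detection or a value that was left out, and the files do not say which.

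MiR-577 was lower in NTera-2 cells after knock-down. Its dCt was 11.83, 12.15 and 11.51 in NTera-2 siSOX2 samples, against 10.31, 9.86 and 10.14 in NTera-2 NC samples. The groups lay apart with siSOX2 lower, as in 22.8% of all assays of this line, and miR-577 had the smallest spread among the NTera-2 NC samples of the 4 miRNAs. The mean dCt was 11.8 ± 0.319 in siSOX2 and 10.1 ± 0.226 in NC samples (SD, n = 3 each), a log2 fold change of -1.73 (SE 0.40), or 0.302 of the NC level. Of the 451 assays 18 had a lower log2 fold change. The same numbered pairs differed by -1.53, -2.29 and -1.37 for replicates 1, 2 and 3.

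In 2102Ep cells, from which the study did not list it, miR-577 had the same mean in both groups within the error. The dCt was 1.72, 3.44 and 2.28 in siSOX2 samples, against 2.65, 2.74 and 2.03 in NC samples. The siSOX2 samples lay on both sides of the NC samples. The log2 fold change was 0.00 after rounding (-0.0042, SE 0.40), with a 95% interval from -0.90 to 0.90 and an adjusted p of 0.999 from limma. A change of up to 1.86-fold lies within this interval.

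Of all assays tested, 14.1% passed an adjusted p of 0.05 in 2102Ep cells (61 of 432, with 9.49% lower and 4.63% higher than NC) and 5.54% in NTera-2 cells (25 of 451, with 3.77% lower and 1.77% higher). Replicate numbers appeared to pair the samples in both lines, which these tests do not use. With the replicate as a block 50 assays passed in 2102Ep cells and 7 in NTera-2 cells. Of the 3 tests of the 4 miRNAs in the line from which the study did not list them, 0 passed. At an unadjusted p under 0.05 from limma there was 1, miR-766 in NTera-2 cells. The study's own p of 0.05 on the same samples had already left these miRNAs out in that line. The outcome of the 3 tests was therefore largely set beforehand and is no independent result. The log2 fold changes of the lines differed by 1.51 for miR-766, 0.53 for miR-942 and -1.72 for miR-577 (NTera-2 minus 2102Ep). These differences contain the contrasts that chose the miRNAs and were not tested. They also rest on references that differ between the lines, as the median of the card B assays was 0.035 in 2102Ep and -0.40 in NTera-2 cells. With the mean of each card as reference in both lines, miR-766 changed by -2.35 in 2102Ep and -0.31 in NTera-2 cells. For miR-942 these values were -1.15 and -0.077, and for miR-577 -0.037 and -1.23.

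**Figure D2:**
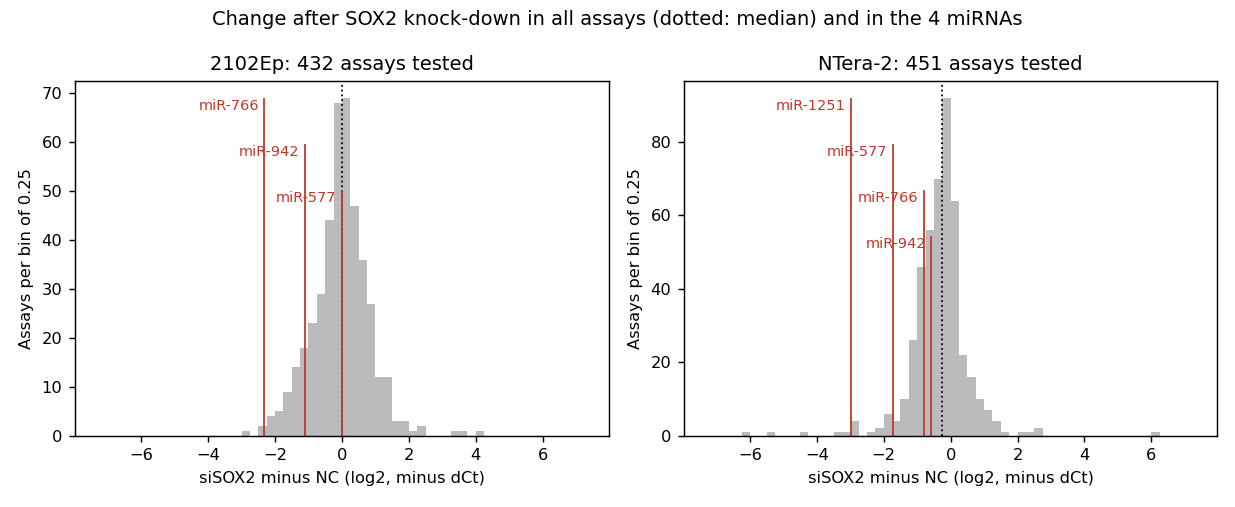
Number of assays (vertical axis) by log2 fold change of siSOX2 minus NC (horizontal axis, bins of 0.25) in 2102Ep (left) and NTera-2 cells (right), with the 4 miRNAs as red lines and the median of all assays as a dotted line. MiR-766 in 2102Ep and miR-1251 in NTera-2 cells lie in the lower tail, whereas miR-577 in 2102Ep cells lies at the median.

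The choice of reference moved the size of these changes. In 2102Ep cells the small nucleolar RNAs RNU44 and RNU48, present on the cards as controls, had a higher Ct after knock-down. On card B, RNU44 was at 17.7 ± 0.265 cycles in siSOX2 and 16.9 ± 0.0847 cycles in NC samples, and RNU48 at 18.8 ± 0.230 cycles in siSOX2 and 18.1 ± 0.0642 cycles in NC samples (SD, n = 3 each). With their mean as reference, the median of all card B assays in 2102Ep cells was 0.59, miR-766 had a log2 fold change of -1.76 (SE 0.28) and miR-942 one of -0.56 (SE 0.34). MiR-766 stayed apart between the groups with this reference, but miR-942 overlapped (-9.46, -9.96 and -8.62 in siSOX2 samples, against -8.77, -8.60 and -8.99 in NC samples, as log2 levels). The number of all assays apart with it was not counted. MiR-577 had a log2 fold change of 0.55 with this reference (adjusted p = 0.404).

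In NTera-2 cells, where 78.5% of the card B assays were below 0, the mean of each card (global mean) as reference gave a log2 fold change of -0.31 for miR-766 (adjusted p = 0.747), -0.077 for miR-942 (adjusted p = 0.948), -2.48 for miR-1251 and -1.23 for miR-577. This reference sets a shift shared by the card to about 0 by construction. The siSOX2 and NC samples of miR-1251 and miR-577 stayed apart with it, whereas those of miR-766 overlapped (2.55, 2.75 and 2.52 in siSOX2 samples, against 2.16, 3.78 and 2.81 in NC samples, as log2 levels). How many of all assays were apart with this reference was not counted. Over every reference tried, miR-1251 lay between -2.98 and -2.48 and miR-577 between -1.73 and -1.23 in NTera-2 cells.

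**Figure D3:**
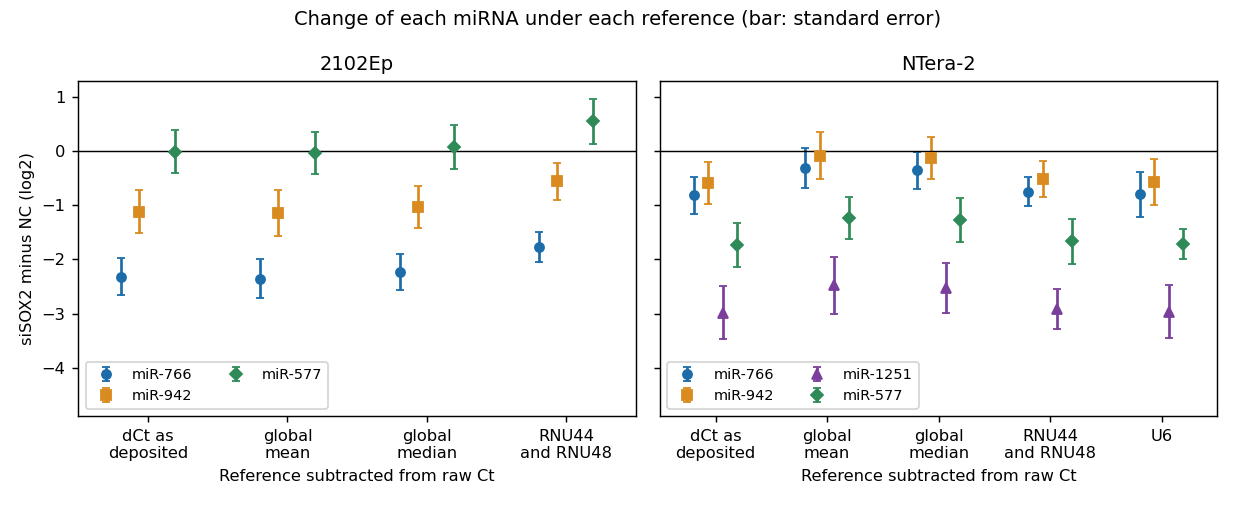
Log2 fold change of siSOX2 minus NC (vertical axis, bars: SE) of each miRNA under each reference subtracted from the raw Ct (horizontal axis) in 2102Ep (left) and NTera-2 cells (right). MiR-577 in 2102Ep cells lies on either side of 0, while all other values shown lie below 0. With the global mean, miR-766 and miR-942 in NTera-2 cells lie within their SE of 0.

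In NTera-2 NC samples the 4 miRNAs had the same order of replicates on the deposited dCt. Replicate 2 had the highest level, replicate 3 lay in the middle and replicate 1 had the lowest level for all 4. With RNU44 and RNU48 as reference the order differed, as replicate 2 was the lowest for miR-577 (-11.43, against -11.00 and -10.99 in replicates 1 and 3). How many of all assays had the same order was not counted. On dCt, replicate 2 lay above the group mean by 0.70 for miR-766, 0.76 for miR-942, 0.86 for miR-1251 and 0.24 for miR-577. The control RNU44 also had its lowest Ct on card B in NC replicate 2 (13.99 cycles, against 15.92 and 15.69 cycles in replicates 1 and 3). Without this sample the log2 fold change was -2.55 for miR-1251, -1.61 for miR-577 and -0.20 for miR-942 (adjusted p = 0.774). Without NC replicate 1 it was -0.93 for miR-942 (adjusted p = 0.208). In siSOX2 samples of NTera-2 cells the range of dCt was 0.167 for miR-766 and 0.194 for miR-942, against 1.38 and 1.47 in NC samples. For miR-1251 it was 0.939 in siSOX2 and 1.68 in NC samples, and for miR-577 it was larger in siSOX2 (0.637) than in NC samples (0.448).

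Over the 6 NTera-2 samples miR-766 and miR-942 had nearly the same profile, with a root mean square difference of 0.12 log2 units after centring each on its mean. In 2102Ep cells their profiles differed by 0.67. Among all assays, the profiles closest to miR-766 over the 12 samples, centred within each line, were miR-26a-1* (root mean square difference 0.30), miR-148a (0.40) and miR-135b* (0.45), where the median of 369 assays was 1.04. MiR-26a-1* had a log2 fold change of -2.24 in 2102Ep cells and one of -0.64 in NTera-2 cells. Closest to miR-942 were miR-18a* (0.26), miR-519e (0.37) and miR-193a-5p (0.37), with a median of 0.74 over the assays.

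Closest to miR-1251, over the 6 NTera-2 samples, were miR-181a-2* (0.69), miR-577 itself (0.75) and miR-522 (0.76), where the median of 444 assays was 1.53. The closest profile was thus further from miR-1251 than those closest to the other 3 miRNAs were from them, though over 6 and not 12 samples for miR-1251. MiR-181a-2* had a log2 fold change of -2.16 in NTera-2 cells. Closest to miR-577 were miR-625* (0.39), miR-135b (0.41) and miR-487b (0.47), with a median of 0.82. MiR-135b had log2 fold changes of 0.10 in 2102Ep and -1.35 in NTera-2 cells, beside -0.0042 and -1.73 for miR-577.

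The 2 lines were compared on raw Ct minus the card B mean of each sample over the 146 assays measured in all 12 samples, which gives a level relative to the card. For each miRNA 1 arm of these comparisons holds samples that chose it, so the values are a description and carry no test. In NC samples miR-942 lay higher in NTera-2 cells. Its relative level was -0.44, 1.27 and 0.19 in NTera-2 NC samples, against -2.08, -2.23 and -2.79 in 2102Ep NC samples. The lines did not overlap, and the difference was 2.71 on the log2 scale (SE 0.43), or 6.54-fold. Such differences were common, as 76.9% of the 386 assays tested between the lines in NC samples passed an adjusted p of 0.05 and 41.2% had all NTera-2 above all 2102Ep samples. In siSOX2 samples, where 73.2% of 385 assays passed, miR-942 differed by 3.78 (SE 0.43).

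MiR-766 had overlapping relative levels between the lines in NC samples, with 2.16, 3.78 and 2.81 in NTera-2 cells, against 2.58, 2.86 and 2.59 in 2102Ep cells, a difference of 0.24 (SE 0.37). In siSOX2 samples it was 2.55, 2.75 and 2.52 in NTera-2 cells, against 0.69, -0.066 and 0.36 in 2102Ep cells, the samples from which it was listed as lower after knock-down. The difference in siSOX2 samples was 2.28 (SE 0.37). The samples of the lines did not overlap, as in 43.1% of the assays, where NTera-2 cells were the higher ones.

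For miR-577 the difference between NTera-2 and 2102Ep cells was 0.73 in NC samples (SE 0.39) and -0.46 in siSOX2 samples (SE 0.39). Without 2102Ep siSOX2 replicate 2 the difference in siSOX2 samples was larger, at -0.92. Over all samples left out it lay between -0.92 and -0.11.

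These comparisons between the lines held only relative to the card. RNU44 and RNU48 had a lower Ct in NTera-2 than in 2102Ep cells, for RNU48 on card B 16.1 ± 0.460 cycles in NTera-2 NC and 18.1 ± 0.0642 cycles in 2102Ep NC samples. With them as reference, the median of all card B assays was -2.13 in NC and -3.39 in siSOX2 samples. MiR-942 then differed by 0.37 (SE 0.34) in NC and by 0.41 (SE 0.34) in siSOX2 samples. With the same reference the difference turned to -2.11 in NC and -1.09 in siSOX2 samples for miR-766, and was -1.61 in NC and -3.82 in siSOX2 samples for miR-577.

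**Figure D4:**
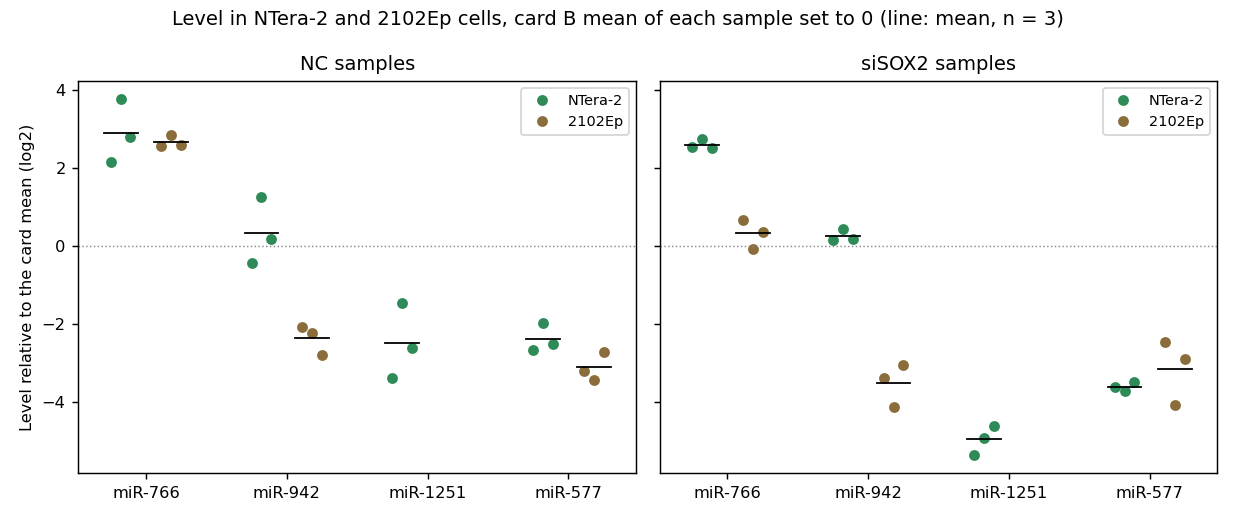
Level of each miRNA relative to the card B mean of the same sample (log2, vertical axis) in NTera-2 (green, left) and 2102Ep cells (brown, right), for NC and siSOX2 samples; points are samples and lines are means of 3. MiR-942 lies higher in NTera-2 cells in both panels, miR-766 in the siSOX2 panel, and miR-1251 has values in NTera-2 cells alone.

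By raw Ct within NC samples, the order of the 4 miRNAs was miR-766, miR-942, then miR-577 and miR-1251 in NTera-2 cells, with mean Cts of 21.5 ± 0.969, 24.1 ± 1.02, 26.8 ± 0.510 and 26.9 ± 1.12 cycles. The last pair did not differ beyond its spread. In 2102Ep NC samples the mean Cts were 21.2 ± 0.314 for miR-766, 26.3 ± 0.142 for miR-942 and 27.0 ± 0.590 cycles for miR-577 (SD, n = 3 each). These Cts are of different assays and rank signals rather than numbers of molecules.

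The SOX2-site list of the study holds 71 precursors, of which 44 had 1 or more assays here (62 assays, 58 without the 4 miRNAs). In 2102Ep cells 53 of the 58 were tested, and 3 were higher and 4 lower after knock-down (13.2%, beside 14.1% of all assays). Their median log2 fold change was 0.13, beside -0.0025 for all assays. Higher were miR-9* (2.26), miR-181a-2* (1.68) and miR-424 (1.52), and lower were miR-96 (-2.999), miR-183 (-1.54), miR-135b* (-1.53) and miR-182 (-1.06), the largest adjusted p being 0.0218 from limma. That p was of miR-96, a weak signal of card A with a wide spread after knock-down. Its level was -15.3 ± 1.67 in siSOX2 and -12.3 ± 0.375 in NC samples (SD). MiR-96, miR-182 and miR-183 come from 1 cluster.

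In NTera-2 cells 55 of the 58 were tested, and 4 were lower and 0 higher (7.27%, beside 5.54% of all assays). Their median was -0.20, beside -0.27 for all assays. Lower were miR-181a-2* (-2.16), miR-135b (-1.35), miR-135b* (-1.22) and miR-7 (-1.18), with a largest adjusted p of 0.0313 from limma. With the replicate as a block, miR-181a-2* and miR-135b passed and miR-135b* and miR-7 did not (adjusted p = 0.0537 for both). These shares leave out the 4 miRNAs, which were picked from the list as deregulated, whereas the shares of all assays still hold them. Leaving them out lowers the share of the list, so whether the list differs from all assays cannot be read from these values.

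The study kept miRNAs by a p-value of 0.05. The SOX2-site assays next to such a threshold, ordered by the p of each assay alone with equal or with unequal variances, are given as a description with no test. In 2102Ep cells they were miR-183 (log2 fold change -1.54), miR-942 itself (-1.11) and miR-205 (0.31), and the 2 orders placed miR-942 on different sides. In NTera-2 cells they were miR-183 (0.49), miR-671-3p (0.89), miR-124a (-0.98) and miR-92b* (-0.80), and miR-1251 and miR-577 were not among them.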

How the data were processed

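Raw Ct and dCt tables were deposited, both on the log2 scale. The authors ran TaqMan Array Human MicroRNA A and B cards after pre-amplification, exported Ct values with DataAssist and made the deposited dCt by subtracting 1 constant per sample and card. The other deposited table, with fold changes and p-values of the authors' own comparison, was not used. Depth is not counted on such cards, and the precision is set by 3 samples per group and by the Ct.

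In 2102Ep siSOX2 replicate 3, raw values from row 105 of the table on stood beside the wrong assay (0.59% of 339 at dCt plus the constant as placed, 99.7% within 3 rows), so raw Ct was rebuilt there.

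Assays measured in at least 2 of 3 samples per arm were tested on minus dCt (lmFit and eBayes of limma 3.58.1, R 4.3.3, 4 group means over 12 samples, two-sided), with Benjamini-Hochberg adjustment over all assays of a comparison and a threshold of 0.05. The lines were compared on raw Ct minus the card mean. No test of the 4 miRNAs is given in a comparison that holds samples that chose them. Missing values were left out, not imputed. The script was tested on simulated data. Replicates of a group correlated by 0.940 to 0.989 in dCt and had 0% identical values. The replicate numbers are taken from the titles. For the same number, residuals of siSOX2 and NC samples had an r of 0.118, 0.265 and 0.159 (NTera-2) or 0.158, 0.169 and 0.064 (2102Ep). For different numbers the r ran from -0.178 to 0.054 (NTera-2) or from -0.216 to 0.036 (2102Ep). The main tests left this apparent pairing out, and the replicate block took it in.

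The 4 miRNAs, the lists and the rules were chosen with earlier results of these data known. Named were the 4 miRNAs, the 3 assays with the closest profile to each, SOX2-site assays past the threshold or next to the study's, and the control RNAs. Alternatives were other references, filters on Ct, Ct 40 for empty values, other tests, the 6 samples alone, a variance trend, a replicate block and each sample left out.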

Additional observations from a re-analysis of the deposited data

How the results depend on the processing

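Of 238 values of the 4 miRNAs under alternatives, 214 kept their direction and side of the threshold, or moved by less than the spread where no test applies. Filters on Ct, other tests and the replicate block leave the log2 fold change of a fully measured assay unchanged. The count therefore overstates how stable the values are. Values between the lines were counted by their adjusted p, although they are given here as a description. With RNU44 and RNU48 as reference the log2 fold change in 2102Ep cells was -1.76 for miR-766, -0.56 for miR-942 and 0.55 for miR-577, which was 0.081 with the global median. In NTera-2 cells miR-577 was -1.23 with the global mean and -1.27 with the global median. Between the lines (NTera-2 minus 2102Ep), RNU44 and RNU48 as reference gave -2.11 (NC) and -1.09 (siSOX2) for miR-766, 0.37 and 0.41 for miR-942, and -1.61 and -3.82 for miR-577. The deposited dCt gave -8.12 and -6.61 for miR-766, -5.65 and -5.12 for miR-942, and -7.63 and -9.35 for miR-577, since its references differ between the lines by construction. The global median gave -0.18 for miR-766 in NC samples and -1.04 for miR-577 in siSOX2 samples.

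The 61 assays called in 2102Ep cells were 39 with an equal-variance and 8 with an unequal-variance test. The split of 41 lower and 20 higher became 13 lower and 34 higher with RNU44 and RNU48. The 25 called in NTera-2 cells (17 lower, 8 higher) were 15 (6 lower, 9 higher) with the global mean, 16 (8 and 8) with the global median, 13 (10 lower, 3 higher) with RNU44 and RNU48, 9 with an equal-variance test, 3 with an unequal-variance test, 11 from the 6 samples alone and 7 with the replicate block. The cause of these shifts was not tested. The replicate block changed no call of the 4 miRNAs (in NTera-2 cells -0.81 for miR-766, adjusted p = 0.254, and -0.58 for miR-942, adjusted p = 0.473). In 2102Ep cells the block gave 50 calls. Between the lines the deposited dCt put 363 assays lower and 9 higher in NC and 369 lower and 6 higher in siSOX2 samples, beside 142 lower and 155 higher in NC and 122 lower and 160 higher in siSOX2 samples, and RNU44 and RNU48 put 230 lower and 56 higher in NC and 274 lower and 23 higher in siSOX2 samples.

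Leaving out 1 sample at a time, where a group of 2 shares the spread of the others, gave 37 to 53 calls in 2102Ep cells (39 without NC replicate 1 and 37 without NC replicate 3) and 10 to 24 in NTera-2 cells (10 without NC replicate 3, 14 without siSOX2 replicate 1 or 2). MiR-577 in 2102Ep cells ranged between -0.38 and 0.48, its difference between the lines in siSOX2 samples between -0.92 and -0.11, and that of miR-766 in NC samples between -0.20 (without NTera-2 NC replicate 2) and 0.62. U6 as reference was not run in 2102Ep cells or between the lines, since U6 of card B had no value in the 2102Ep samples. On card A, U6 stood at 14.9 ± 0.0475 cycles in 2102Ep NC and 10.8 ± 0.179 cycles in NTera-2 NC samples (SD, n = 3 each). MiR-1251 has no alternative in 2102Ep cells.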
